A study of Drosophila melanogaster with 10 samples.

Results

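Male and female genital imaginal discs of the Drosophila melanogaster wild-type strain Canton S were compared directly on 5 spotted arrays hybridised in 2 colours, of 10 arrays in the series. These 5 were taken by their sample titles, and the other 5 arrays compared the sexes of the wild-type strain Berlin in the same way. Discs were dissected late in the last larval instar after gut clearing, and RNA of pooled discs was used, so each array averages over many larvae and over all cell types of the disc. The design text calls the samples of a strain independent biological samples. The groups carry no transgene, mutation or drug, and males and females of the same strain share strain, stage and handling. The male sample was labelled with Cy5 on replicates 1, 4 and 5 and with Cy3 on replicates 2 and 3. In Berlin it was labelled with Cy5 on replicates 4 and 5. Of 15744 probes on 41 printing plates, 5919 had a value on at least 3 Canton S arrays. A further condition, that both dye orientations were measured, removed 7 of them and left 5912 tested probes.

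The genital disc is the single unpaired imaginal disc of the fly larva, and it forms the genitalia, the internal genital ducts and the analia of the adult. It is built from a female primordium, a male primordium and an anal primordium. In each sex only the matching genital primordium grows out, while the other stays small. The sex determination gene doublesex, which is spliced differently in males and females, acts in this disc together with the segment identity gene Abdominal-B, and modifies the response to the signals hedgehog, wingless and decapentaplegic. Male discs in addition recruit cells that express the FGF receptor breathless and contribute to internal organs. These genes could not be read here, because the probes carry plate and well identifiers only. None of the identifiers (0) occurred in the reference table of 17872 Drosophila genes, so the tissue could not be checked against marker genes and no sequence can be shown. The results below therefore describe probes by identifier, plate, size of ratio and behaviour across arrays.

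Each deposited value is 1 log ratio of both channels of an array. The log base is not stated and was taken as 2, so that a value of 1 stands for a 2-fold difference between the sexes. All fold values below rest on this. The arrays differed in how many probes had a value and in how far the ratios spread. Replicate 3 had 8724 values, replicate 5 had 6728, replicate 1 had 6279, replicate 2 had 5494 and replicate 4 had 2848. The spread of the log2 ratios, as a median absolute deviation scaled to a normal SD, was 0.88 on replicate 3, between 1.22 and 1.32 on replicates 5, 2 and 4, and 2.17 on replicate 1. A ratio of more than 2-fold in either direction was thus recorded for 30.4% of the values of replicate 3 and for 68.4% of those of replicate 1. In Berlin this share ran from 12.9% to 64.1%. The mean share was 49.0% ± 14.5 (SD, n = 5) in Canton S and 24.3% ± 22.3 (SD, n = 5) in Berlin, which did not pass an exact permutation test, two-sided, of all 252 splits (p = 0.103, adjusted over 3 array measures p = 0.226). Neither did the median absolute deviation (exact permutation p = 0.151, adjusted 0.226) or the number of values (exact permutation p = 0.333, adjusted 0.333).

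Which sex a positive value stands for is not stated. Since the samples are described as female to male, a positive value is likely to mean more transcript in females, provided that the authors turned the ratios for the dye swap. If they did not, a value is Cy5 over Cy3, and the sex difference then lies in the contrast between the dye orientations. Both quantities were therefore taken from one fit: the mean of both orientations, and the orientation term, by which arrays with the male in Cy5 lie above that mean and arrays with the male in Cy3 below it. Signs below are those of the deposited values.

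The Canton S arrays fell only in part into groups by orientation, with replicate 4 apart from the others of its label. Across probes, replicates 1 and 5, both with the male in Cy5, had a Pearson correlation of 0.78 (5501 probes). Replicates 2 and 3, both with the male in Cy3, had one of 0.53 (4959 probes). Replicate 4 has the male in Cy5 like replicates 1 and 5, but its correlation was -0.06 with replicate 1 and -0.11 with replicate 5. With the arrays of the other orientation it was 0.47 (replicate 2) and 0.16 (replicate 3). Over probes that did not pass the test of the mean below, it was -0.25, 0.22, -0.20 and -0.24 with replicates 1, 2, 3 and 5. No sex-specific transcript was available to check the dye label of replicate 4, and every statement below that sets replicate 4 against an orientation rests on that label. Between orientations the correlation was -0.25 for replicates 1 and 2 and -0.34 for replicates 2 and 5, where 76.4% and 75.1% of shared probes had opposite signs. It was 0.26 for replicates 1 and 3 and 0.04 for replicates 3 and 5. These are descriptions across probes, which share an array, its normalization and its print run and are not independent replicates.

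In the mean of both orientations, 277 of the 5912 probes (4.69%) differed from equality after Benjamini-Hochberg adjustment of limma's moderated test. The difference was almost wholly on one side, with 272 positive probes (4.6% of those tested) and 5 negative ones (0.0846%). Among the positive probes the median log2 ratio was 2.94, or 7.68-fold, with quartiles of 5.84-fold and 10.3-fold. All 272 were estimated at 4-fold or more, 117 at 8-fold or more and 16 at 16-fold or more. The threshold bears on the lower end of these sizes, as smaller ratios with a like standard error did not pass. The last probe to pass had a mean of 2.65 ± 0.69 (SE), and the first outside had 2.11 ± 0.56 (SE). Over all tested probes the median was -0.01 on the log2 scale, and 378 stood at 4-fold or more in either direction. The median standard error over the called probes was 0.58 (log2). Without replicate 1 or replicate 3 limma called 1 probe, and without replicate 2 it called 0 (500 at an unadjusted p below 0.05). It called 794 without replicate 4 and 184 without replicate 5, of which 182 were positive.

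The positive probes were high on every array, but by different amounts. Their median log2 ratio was 2.71 on replicate 1, 4.27 on replicate 2, 2.74 on replicate 3, 4.31 on replicate 4 and 1.29 on replicate 5. They were chosen on these same values, so the size of these medians is a description. All measured values were above 0 for 263 of the 272. Replicate 5 held 8 of the 10 values below 0 and replicate 1 the others. Among the 83 positive probes with all 5 values, replicate 5 was lowest for 73, while replicate 2 was highest for 50 and replicate 4 for 30. The distance from the lowest to the highest array had a median of 4.26 on the log2 scale for these probes, against 3.11 for the 2542 fully measured probes that were not called. The order of the arrays was thus largely shared by the called probes. It was not counted for the probes not called, so it cannot be said to be particular to the calls. By their labels, replicates 2 and 4, which stood highest, have opposite orientations.

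**Figure D1:**
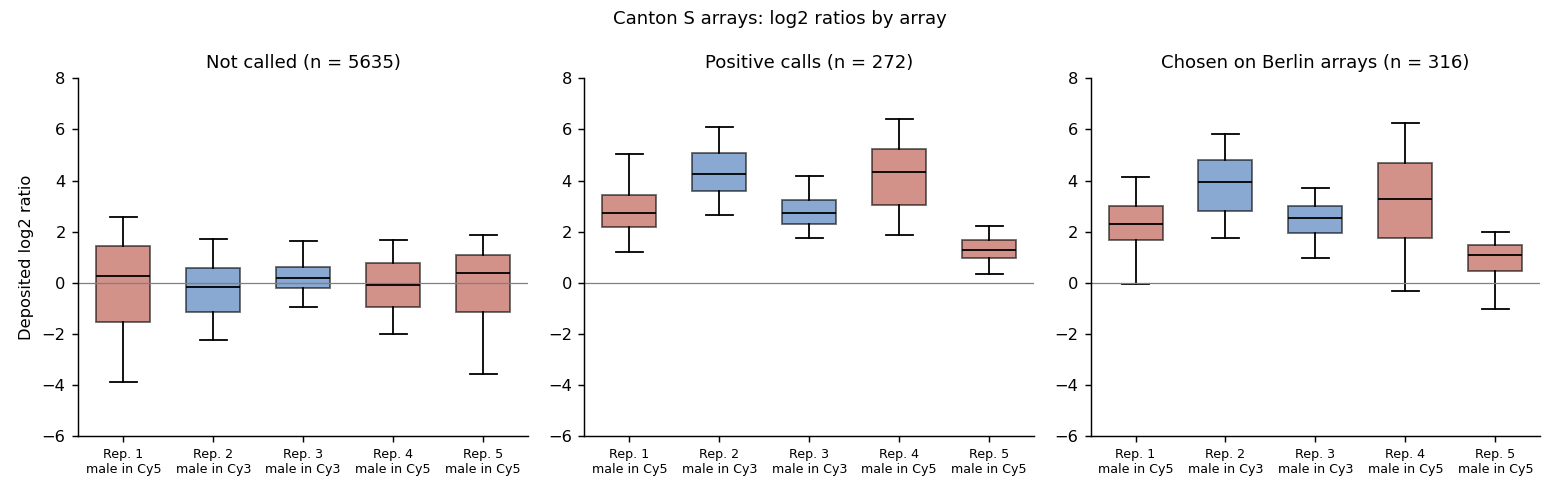
Deposited log2 ratios on each Canton S array for the probes not called, the positive calls, and the probes that the Berlin arrays called positive. Boxes span the quartiles with the median as a line, whiskers the 5th to 95th percentile, red boxes have the male in Cy5 and blue boxes in Cy3. The positive calls have medians from 1.29 on replicate 5 to 4.31 on replicate 4, and the probes chosen on Berlin arrays stand at 1.06 to 3.92.

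On the positive side the highest ratio among calls measured on at least 4 arrays with 1 sign throughout was that of DAC028I08 on plate 28. It stood at 2.50 on replicate 1, 8.46 on replicate 2, 3.62 on replicate 4 and 2.18 on replicate 5, and had no value on replicate 3. All 4 values lay above a 4-fold ratio, and replicate 2 stood far above the others. The fitted mean was 5.61 ± 0.62 (SE) on the log2 scale, or 49.0-fold (limma adjusted p = 0.00334). Replicate 2 is its only array with the male in Cy3, and with no dye term the mean was 4.19 and the call was lost (limma adjusted p = 0.0529). The next, DAC038D06 on plate 38, stood at 4.86, 5.16, 4.71 and 1.34 on replicates 1, 2, 4 and 5. Its first 3 values were close together and replicate 5 was low. The fitted mean was 4.40 ± 0.75 (SE), or 21.1-fold (limma adjusted p = 0.00701). On Berlin arrays, which did not enter this choice, DAC028I08 had values of 4.48, 4.82 and 6.73 on replicates 3, 4 and 5. There DAC038D06 had 2.23, 2.62, 3.38 and 3.84 on replicates 2 to 5. For both probes every Berlin value was positive. Without replicate 1 of Canton S the fitted mean of DAC038D06 was 4.09 (limma adjusted p = 0.0594). Without replicate 3, which held no value of this probe, its mean stayed at 4.40 (limma adjusted p = 0.0619). The second change therefore does not show that DAC038D06 depends on replicate 3.

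The 5 negative calls had a median of 7.16-fold, and 3 of them met the same condition on arrays and sign. DAC041M13 on plate 41 stood at -10.7, -2.93, -1.76, -3.40 and -6.20 on replicates 1 to 5, negative throughout and lowest on replicates 1 and 5. Its fitted mean was -4.55 ± 0.78 (SE), or 23.4-fold (limma adjusted p = 0.00701), and it had no value on any Berlin array. Without replicate 1 its fitted mean was -3.57. DAC010M17 on plate 10 stood at -3.11, -4.38, -2.65, -2.73 and -1.52, with a fitted mean of -2.99 ± 0.50 (SE), or 7.92-fold (limma adjusted p = 0.00701). It was also negative on all 5 Berlin arrays, from -3.28 to -1.56. Both lost the call without replicate 1, 2 or 3, with limma adjusted p between 0.0566 and 0.246.

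The other 3 negative calls are named because their number is small, after their values were seen. DAC037J23 and DAC037A11 are both on plate 37. DAC037J23 stood at -3.49, -1.65, -0.84, -2.46 and -1.86 on replicates 1 to 5, with a fitted mean of -1.92 ± 0.48 (SE) and a limma adjusted p of 0.0340. DAC037A11 had 3 values, -5.07, -2.94 and -1.68 on replicates 2, 3 and 5, with a fitted mean of -2.84 ± 0.71 (SE) and a limma adjusted p of 0.0405. Both were negative on all 5 Berlin arrays, DAC037J23 from -2.28 to -0.94 and DAC037A11 from -2.46 to -2.03. DAC019C01 on plate 19 stood apart from these, at -6.17 and -5.42 on replicates 1 and 5 and 0.43 on replicate 2. It had no value in Berlin, and its fitted mean of -2.68 ± 0.67 (SE; limma adjusted p = 0.0394) is the midpoint of orientations with different signs. None of these 3 was called without replicate 1, 2 or 3 in any fit that could test it. For DAC037A11 and DAC019C01, however, the only such fits left out an array that held no value of the probe. These were the fits without replicate 1 for DAC037A11 and without replicate 3 for DAC019C01. Their fitted means stayed at -2.84 and -2.68, so the lost call does not show that either probe depends on the array left out.

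**Figure D2:**
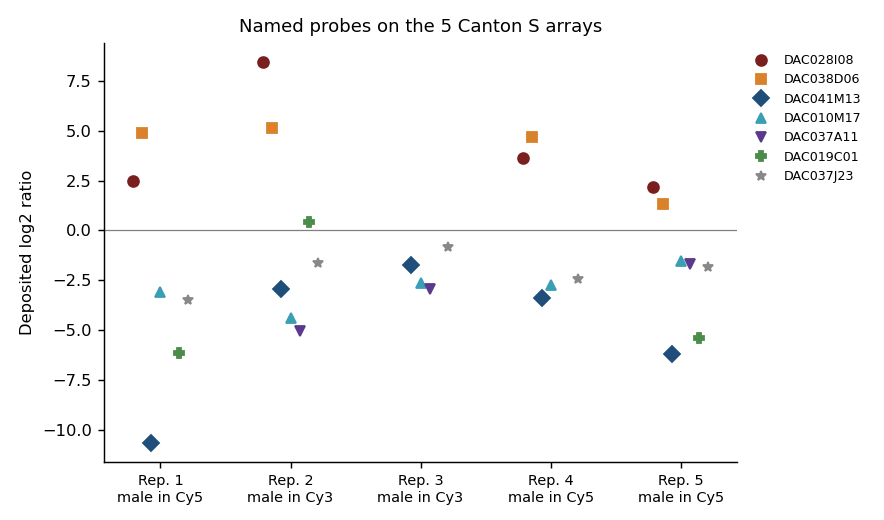
Deposited log2 ratio of each named probe on the 5 Canton S arrays, 1 symbol per probe and a gap where a probe had no value. DAC028I08 and DAC038D06 lie above 0 on each array that measured them, while DAC019C01 lies at -6.17 and -5.42 on replicates 1 and 5 and at 0.43 on replicate 2.

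Missing values were part of the pattern. Probes measured on 4 arrays were called most often, 143 of 1957 (7.31%), against 48 of 1327 (3.62%) on 3 arrays and 86 of 2628 (3.27%) on all 5. Nearly all probes with 4 values lacked replicate 4, namely 1789, and 137 of these were called. Of the 277 called probes, 66.4% had no value on replicate 4, against 52.2% of the tested probes. Replicate 2 had no value for 7.94% of the called and 14.4% of the tested probes, and replicate 3 for 5.42% and 3.50%. Replicate 1 had none for 2.53% and 3.99%, and replicate 5 for 3.97% and 3.89%. When tested by themselves, the 2628 fully measured probes gave 19 calls, 18 positive and 1 negative. The sources used here do not state which filter emptied cells, and its part in these shares was not tested.

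The orientation term gave another picture. No probe (0 of 5912, 0%) passed in limma's test, but 1085 had an unadjusted p below 0.05, or 18.4%, more than the 649 of the mean. Of these 1085, 402 had the higher ratio with the male in Cy5 and 683 with the male in Cy3. The typical size of the term was 0.69 on the log2 scale, against 0.40 for the mean. If the deposited values are Cy5 over Cy3, this term is the sex difference, male over female, and the 277 probes above are those with a ratio shared by both orientations. The called positive probes had a median orientation term of -0.57, against 0.03 over all tested probes.

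**Figure D3:**
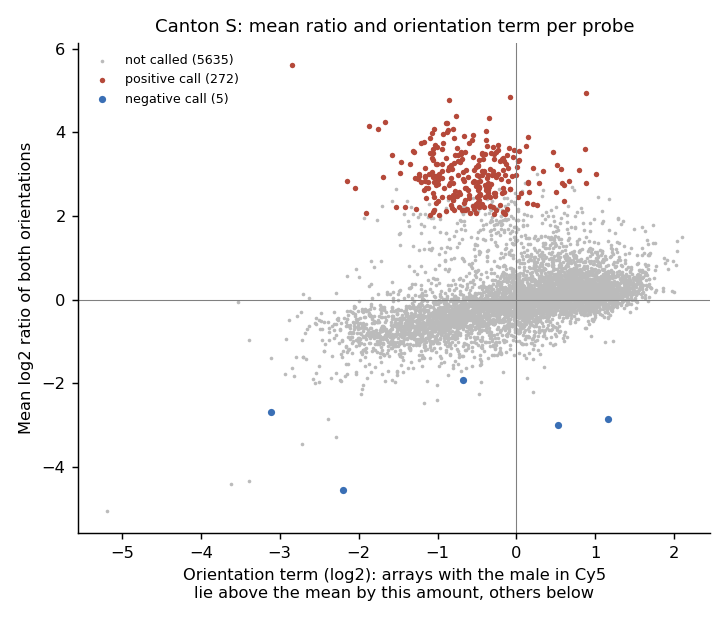
Mean log2 ratio of both orientations (vertical axis) against the orientation term (horizontal axis) for each tested Canton S probe. The 272 positive calls form a band above a mean of 2, while the 5635 probes not called spread mainly along the orientation axis.

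The count for the orientation term depended on replicate 4. Without it, the orientation term had 1309 calls among 5882 tested probes (22.3%), 389 positive and 920 negative, with medians of 1.48 and -1.92 on the log2 scale. The mean then had 794 calls (13.5%), 465 positive and 329 negative, so its share of positive calls fell from 98.2% to 58.6%. Of the 277 probes called with all arrays, 276 were among the 794. Weights estimated per array had a like outcome, with a weight of 0.19 for replicate 4 against 1.32 to 1.97 for the others. With these weights 1281 probes were called for the orientation term and 677 for the mean, 448 positive and 229 negative. Replicate 4 also had the fewest values, 2848, and the part of this in the counts was not tested.

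Replicate 4 itself had no part in choosing those probes. Of the 465 positive probes of the mean, 97 had a value on replicate 4 and 94 of these were above 0, with a median of 4.14. Of the 329 negative ones, 277 had a value there and only 55 were below 0, while 222 were above 0. On the arrays that chose them, the negative probes had medians of -3.81 and -3.69 on replicates 1 and 5 but 0.92 and 0.18 on replicates 2 and 3. Their negative mean thus came from replicates 1 and 5. The 920 probes with a negative orientation term had medians of -3.17 and -3.06 on replicates 1 and 5, 0.99 on replicate 2 and 0.57 on replicate 3. On replicate 4, labelled with the male in Cy5 like replicates 1 and 5, 514 of the 741 measured were above 0. On the Berlin arrays these 920 probes had a median of 2.31 on replicate 1 and medians between -0.16 and 0.32 on replicates 2 to 5. The 389 probes with a positive orientation term had medians of 2.24 and 1.60 on replicates 1 and 5, -2.06 on replicate 2 and 0.09 on replicate 3. On replicate 4 they had a median of 0.21, with 142 of 229 above 0. Their Berlin medians were -1.47, -0.14 and -0.70 on replicates 1 to 3, with the male in Cy3, and 0.01 and -0.00069 on replicates 4 and 5, with the male in Cy5. On replicate 4, most measured probes of both orientation sets were thus above 0, against 49.6% of all values of that array.

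**Figure D4:**
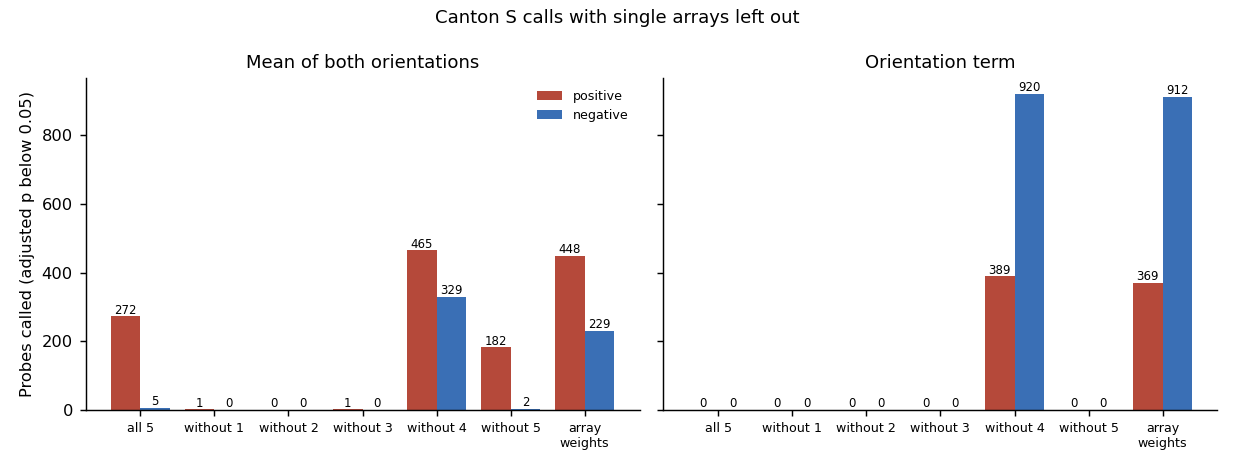
Number of Canton S probes called with an adjusted p below 0.05 for the mean of both orientations and for the orientation term, with all 5 arrays, with each array left out, and with array weights. Red bars count positive and blue bars negative probes. Without replicate 4 the counts are 465 and 329 for the mean and 389 and 920 for the orientation term, and without replicate 1, 2 or 3 at most 1 probe is called.

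The Berlin arrays allow a choice of probes that did not use the Canton S values. Fitted by themselves, the 5 Berlin arrays called 354 of 4347 probes (8.14%), and 330 of these were also tested in Canton S. There 205 of the 330 were called (62.1%), against 228 of the 4154 probes tested in both strains (5.49%). The shared calls were 202 positive and 3 negative, and none (0) was called in opposite directions. As a share of the other list, the 205 were 89.9% of the 228 Canton S calls that Berlin tested. The count was 1 of 290 without Canton S replicate 1, 0 of 300 without replicate 2 and 1 of 287 without replicate 3. It was 278 of 327 without replicate 4 and 144 of 287 without replicate 5.

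For the 316 positive Berlin probes, the median log2 ratio was 2.29, 3.92, 2.54, 3.27 and 1.06 on Canton S replicates 1 to 5. The mean of these array medians was 2.62 ± 1.08 (SD, n = 5), positive on 5 of 5 arrays. A two-sided exact sign-flip permutation test over the 5 arrays gave p = 0.0625, the smallest that 5 arrays allow. In the fits, 309 of the 316 had a positive estimate in Canton S, with a median of 2.47 against 2.64 in Berlin. Over all 4154 probes tested in both strains, only 42.6% had the same sign in both fits. The 14 negative Berlin probes had medians of both signs on the Canton S arrays, at 0.85, -1.64, 0.13, -2.24 and 0.58 on replicates 1 to 5. Their mean was -0.46 ± 1.39 (SD, n = 5; exact sign-flip permutation p = 0.5), and 3 of them were called in Canton S. In the fits 9 of the 14 had a negative estimate, with a median of -0.29 against -1.66 in Berlin. Only 4 of the 14 had a value on replicate 4. An effect of dye shared by all arrays in values not turned for the swap would appear in both strains too, and cannot be told apart from sex by this overlap.

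Some of the Canton S calls lay outside what Berlin could measure. Of the 277, 49 were not tested in the Berlin fit (17.7%, against 29.7% of all tested Canton S probes), and 10 had no value on any Berlin array. The direct test of Berlin minus Canton S used all 10 arrays in 1 fit, over 4514 probes with values on at least 3 arrays per strain. Of these, 2284 had values on all 10 arrays. In this test limma called 0 probes (0%), with 153 at an unadjusted p below 0.05 (3.39%) and a smallest adjusted p of 0.871. Among the 230 Canton S calls in that test, 6 had an unadjusted p below 0.05 (2.61%), and the median difference was 0.05 on the log2 scale. Over the Canton S calls, the 95% interval of the strain difference reached a median of 1.63 to each side of the estimate, which is a 3.10-fold difference. For DAC028I08 the interval ran from -1.83 to 3.73, and for DAC010M17 from -0.28 to 2.07. Absence of a call therefore does not show that the strains have the same ratio.

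By position in the probe collection, 39 of 41 plates held called probes, between 2 and 15 each, or 1.11% of the tested probes on plate 35 to 13.6% on plate 41. Plates 1 and 2 had none (0 of 65 tested probes, from 768 wells), against 4.74% of the tested probes on the other plates. Without replicate 4 they held 8 calls among 64 tested probes. These 2 plates also stood apart in level, in opposite ways on different arrays. On plate 1 the median log2 ratio was -2.21 on replicate 1, 0.69 on replicate 2, 0.07 on replicate 3, 2.00 on replicate 4 and -3.48 on replicate 5. These plate 1 medians rest on 65, 43, 19, 10 and 34 values. On plate 2 the median was -1.06, 0.09, 0.05, 0.73 and -3.27, from 55, 42, 55, 35 and 87 values. The medians of the other 39 plates lay between -0.28 and 1.02 on replicate 1, between -0.31 and 0.36 on replicate 2, between -0.42 and 0.36 on replicate 4 and between 0.26 and 0.94 on replicate 5. Both plates thus lay below the range of all others on replicates 1 and 5 and above it on replicate 4, and plate 1 lay above it on replicate 2. The content of these plates is not stated in the sources used here.

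**Figure D5:**
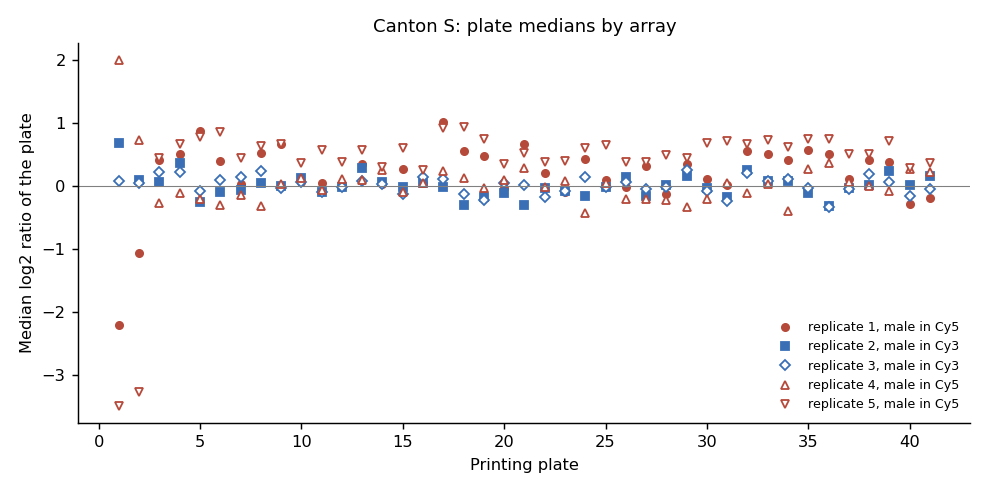
Median deposited log2 ratio of each of the 41 printing plates (horizontal axis) on each Canton S array, red for the male in Cy5 and blue for the male in Cy3. Plates 1 and 2 lie at -3.48 and -3.27 on replicate 5, while plate 1 lies at 2.00 on replicate 4, from 10 values.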

How the data were processed

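Per the labels' protocols, poly(A)+ transcripts of total RNA from pooled discs were amplified to aminoallyl cRNA and coupled to Cy5 or Cy3. The deposited table holds 1 log2 ratio per probe and array, and no pooled columns. Of tools, limma alone is named in the submitters' processing notes, without version or role. The authors' background correction, normalization, centring, spot filter, log base (taken as 2) and numerator are not stated in the sources used here. There were no channel intensities to judge brightness from. Precision is limited by the number of arrays.

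The 32 control rows were left out. Probes with values on at least 3 of 5 arrays and both orientations entered a fit by limma 3.58.1 (functions lmFit and eBayes, R 4.3.3) with a mean and an orientation code of +1 or -1. P-values were adjusted over all tested probes (Benjamini-Hochberg), and probes below 0.05 were called. Berlin was fitted alone in the same way, and the strain difference over all 10 arrays with 1 shared orientation term. The fits were tested on simulated data. Exact permutation tests were two-sided. Probes have no gene names, so only the 2 highest and 2 lowest calls with values on at least 4 arrays and 1 sign were named by rule, and planned gene lists were not used. Members and rules were chosen with earlier results of these data known. Alternatives were each array left out, centring, scaling, array weights, no dye term, stricter filters or thresholds, robust moderation, a minimum fold change, all arrays in 1 fit, and a Cy5 over Cy3 reading. Figures were drawn with matplotlib 3.10.9.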

Additional observations from a re-analysis of the deposited data

Results flagged for a closer look

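Per-array values were screened for an array far from the others in 15 groups of 4 or 5 Canton S values, and 1 group was marked. Chance marks about 1 in 20 groups. It was DAC038D06, whose value of 1.34 on replicate 5 lay far below its other 3 values of 4.71 to 5.16. Replicate 5 was also the lowest array for 73 of 83 fully measured positive calls.

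Control spots entered no comparison. DACControlC05 was the only one with a value on all 5 Canton S arrays, and it was negative on each, at -3.07, -3.27, -2.90, -3.61 and -1.23 on replicates 1 to 5. Its mean log2 ratio was -2.82 ± 0.93 (SD, n = 5), with the same sign in both dye orientations. DACControlD05 was negative on its 3 arrays, with a mean of -2.59 ± 1.16 (SD, n = 3). DACControlC08 had both signs, at 0.91, 0.50 and -2.78 on replicates 2, 3 and 5. DACControlB07, DACControlB08 and DACControlD07, with values on 1 or 2 arrays, were positive on each, while DACControlA05, DACControlB05 and DACControlC04 were negative on each. DACControlC07 had both signs on its 2 arrays. The content of these spots is not stated in the sources used here.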

How the results depend on the processing

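The mean of both orientations had 277 calls, and between 0 (without Canton S replicate 2) and 794 (without replicate 4) when single arrays were left out. It had 124 with centring, 104 with no dye term, 19 over the fully measured probes alone, 84 at a threshold of 0.01, 677 with array weights and 0 when read as Cy5 over Cy3 (limma, 1085 probes at an unadjusted p below 0.05). Scaling, robust moderation, values on 4 or more arrays, a 1.2-fold minimum and all 10 arrays in 1 fit gave 218 to 406 calls. Positive probes were the majority wherever over 1 probe was called, from 58.6% without replicate 4 and 66.2% with array weights to 99.2%. The orientation term had 0 calls in limma except without replicate 4 (1309) and with array weights (1281). The leave-one-out counts ran from 0 to 1309. The Berlin calls shared with Canton S were 205 of 330 tested. Leaving out single Canton S arrays gave from 0 of 300 (without replicate 2) to 278 of 327 (without replicate 4). The count was 100 of 329 with centring, 301 of 680 with scaling and 33 of 115 at a threshold of 0.01. No Berlin array was left out for this count. Apart from settings that test fewer probes or arrays, the cause was not tested. For DAC028I08, DAC038D06, DAC010M17 and DAC037A11 the orientation term had the opposite sign to the mean, at -2.85, -0.76, 0.53 and 1.16. For DAC041M13, DAC019C01 and DAC037J23 it had the sign of the mean, at -2.20, -3.11 and -0.68. Read as Cy5 over Cy3 this term is male over female, whereas a positive mean of turned values is likely female over male. An opposite sign would thus stand for the same sex in both readings, and an equal sign for different sexes. No alternative run gave a call for the strain difference in limma (0 calls each), and 45 to 526 unadjusted p-values were below 0.05. The strains share replicate numbers. Arrays of the same number, as deviations from the mean of their strain, correlated at -0.67, -0.46, 0.06, -0.11 and 0.61 (2284 probes), so the numbers were not taken as pairs, and the replicate block with no dye term gave 0 calls (88 at an unadjusted p below 0.05).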

Other observations

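A few ratios lay far outside the rest. On Canton S replicate 1, 15 values lay beyond 8 on the log2 scale in either direction, with a lowest value of -16.4, and on replicate 2 there were 4, with a highest value of 17.3. Replicates 3, 4 and 5 had none (0).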
